A study of Mus musculus with 4 samples.

Results

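H3K27ac, a histone H3 acetylation of active promoters and enhancers, was followed in mouse marrow cells at 6 transcription factor genes used by macrophages: Mitf, Tfec, Tfeb and Tfe3 of the MiT/TFE family, Maf (c-Maf) and Creb5. These 6 genes were taken by name out of 21883 protein-coding genes, of which 14633 had a called region in either peak list. The set was selected on acetylated lengths in these same lists, where Mitf and Creb5 were already known to differ, so the differences below describe the genes and test nothing. The window of a gene is its RefSeq span with 20 kb added on each side.

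The group labelled BN1 consisted of cKit-positive, CD45.2-positive bone marrow cells of the C57BL/6 strain with the genotype BRD9-NUTM1, a leukaemia fusion of a bromodomain subunit of chromatin remodelling complexes with a p300-binding protein of the testis. The group labelled control consisted of cKit-positive, CD45.2-positive C57BL/6 marrow cells with no fusion named. The sorting marker cKit is the receptor tyrosine kinase for stem cell factor found on blood progenitors, and its gene Kit had no peak within 20 kb in either list. Age, treatment and the origin of the fusion-bearing cells are not given in the labels, and the extract protocol speaks of BN1 cells for the control samples as well. Each group had 1 ChIP library, made by fanChIP (a native chromatin immunoprecipitation after fractionation), and no difference below has a replicate check. An input library of each group was not analysed here. The peaks assigned to the control sample carry the name prefix BRNU and those assigned to the BN1 sample the prefix BM, which reads against the sample titles, so the lists are called BN1-labelled and control-labelled by title, and every direction holds for the titles only. Sequencing depth is unknown.

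MiT/TFE proteins are basic helix-loop-helix leucine zipper factors that bind E-boxes as homodimers or as heterodimers with one another. Mitf governs melanocytes, mast cells and, together with Tfe3, osteoclasts, which arise from macrophage precursors. Tfec is largely restricted to macrophages. Tfeb and Tfe3 switch on lysosomal and autophagy genes when nutrient signalling through mTORC1 is low. Maf, a basic leucine zipper factor, acts in macrophage maturation and in T cells, and Creb5 is a basic leucine zipper factor close to Atf2 and Atf7.

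The start regions below are shown because H3K27ac at them separated the genes: the upstream start of Mitf, the start of Tfec and both starts of Creb5 lay under a peak of the control-labelled list only, the most downstream start of Mitf lay under no peak, and the upstream start of Tfeb lay under a peak of both lists. Each runs from 250 bases before to 50 after a RefSeq start (GRCm38.p6, the assembly of mm10), read 5′ to 3′ on the strand of the gene. Capitals mark matches, on either strand, to CACGTG (the E-box that MiT/TFE proteins bind), CATGTG (the core of the M-box), TGACTCA (the AP-1 element, also the centre of many Maf sites), TGACGT (most of the cyclic AMP response element, which CREB and ATF proteins bind) or GAGGAA (the core of PU.1 sites).
Mitf upstream start, chr6:97806808-97807107, plus strand: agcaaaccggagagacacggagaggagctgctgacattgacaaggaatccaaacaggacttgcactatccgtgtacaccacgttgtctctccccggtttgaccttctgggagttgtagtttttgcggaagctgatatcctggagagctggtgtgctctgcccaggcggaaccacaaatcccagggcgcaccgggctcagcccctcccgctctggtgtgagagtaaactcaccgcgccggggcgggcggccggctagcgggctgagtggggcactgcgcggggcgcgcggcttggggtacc
Mitf most downstream start, chr6:97991533-97991832, plus strand: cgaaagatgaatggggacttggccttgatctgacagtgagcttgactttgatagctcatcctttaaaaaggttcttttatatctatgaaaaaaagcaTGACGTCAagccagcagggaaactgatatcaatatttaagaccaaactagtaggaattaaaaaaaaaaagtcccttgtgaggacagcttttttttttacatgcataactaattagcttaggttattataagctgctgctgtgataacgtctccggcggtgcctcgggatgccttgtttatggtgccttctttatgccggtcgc
Tfec start, chr6:16898392-16898691, minus strand: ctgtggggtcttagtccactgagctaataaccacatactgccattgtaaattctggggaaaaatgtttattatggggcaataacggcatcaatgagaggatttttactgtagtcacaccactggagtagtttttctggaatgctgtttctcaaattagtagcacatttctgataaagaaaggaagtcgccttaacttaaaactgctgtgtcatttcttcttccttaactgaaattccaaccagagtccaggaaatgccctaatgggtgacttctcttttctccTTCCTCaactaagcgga
Creb5 upstream start, chr6:53287053-53287352, plus strand: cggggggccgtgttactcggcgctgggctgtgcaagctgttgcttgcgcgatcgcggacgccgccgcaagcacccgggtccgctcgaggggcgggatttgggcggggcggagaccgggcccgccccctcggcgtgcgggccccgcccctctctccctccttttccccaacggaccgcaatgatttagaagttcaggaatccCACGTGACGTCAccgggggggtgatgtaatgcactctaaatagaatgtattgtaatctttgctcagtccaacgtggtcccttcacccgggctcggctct
Creb5 downstream start, chr6:53573124-53573423, plus strand: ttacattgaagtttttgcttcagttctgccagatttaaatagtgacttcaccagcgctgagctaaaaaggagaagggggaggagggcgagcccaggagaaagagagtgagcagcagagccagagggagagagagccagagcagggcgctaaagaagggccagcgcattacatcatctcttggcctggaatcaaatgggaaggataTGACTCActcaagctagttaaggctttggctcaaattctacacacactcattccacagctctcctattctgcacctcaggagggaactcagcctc
Tfeb upstream start, chr17:47736787-47737086, plus strand: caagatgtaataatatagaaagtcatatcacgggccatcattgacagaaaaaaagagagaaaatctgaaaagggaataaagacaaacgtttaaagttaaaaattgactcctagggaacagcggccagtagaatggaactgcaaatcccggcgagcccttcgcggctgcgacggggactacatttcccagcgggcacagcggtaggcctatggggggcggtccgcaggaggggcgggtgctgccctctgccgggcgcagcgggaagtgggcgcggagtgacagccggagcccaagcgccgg

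Of the 6 printed regions, the upstream start of Mitf and that of Tfeb held no match, and each had 22 CpG dinucleotides. Positions are counted from 1 at the 5′ end of the printed region. The upstream start of Creb5 held a CACGTG at position 202 that overlapped a TGACGT at 206, itself overlapped by a TGACGT of the other strand at 208. In the downstream start of Creb5, TGACTCA was found from position 206 onwards. The most downstream start of Mitf held TGACGT at 98, overlapped by a match of the other strand at 100, and that of Tfec held GAGGAA of the other strand at 284. Of 21262 start regions of protein-coding genes, CACGTG was found in 7.84%, CATGTG in 11.5%, TGACTCA in 4.66%, TGACGT in 8.49% and GAGGAA in 27.4%. These matches describe letters in a window and not bound sites.

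RefSeq gave 11 start regions for 5 of the 6 genes. None lay under a peak of the BN1-labelled list only, 4 lay under a peak of the control-labelled list only, 4 under a peak of both and 3 under none. Over all 21262 start regions these shares were 3.46%, 6.91%, 35.4% and 54.2%. A region counted as under a peak from 1 bp of overlap. The 4 shared ones were those of Tfeb (the upstream pair) and Tfe3, and the 4 seen in the control-labelled list only belonged to Mitf, Tfec and Creb5. The start region of Tfec had 3 CpG dinucleotides, against a median of 16 over all start regions under a peak of the control-labelled list only.

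Across the 6 genes the BN1-labelled list held 17 peaks covering 15600 bp, and the control-labelled list held 45 peaks covering 70775 bp. That was 0.0816% of the covered length of the BN1-labelled list (19.1 Mb) and 0.228% of that of the control-labelled list (31.0 Mb). Acetylated length was at least 2-fold lower in the BN1-labelled list at 4 of 6 genes, at least 2-fold higher at 0 of 6, and less than 2-fold apart at Tfeb and Tfe3. Over all 14633 genes with a region, 34.0% were at least 2-fold lower in the BN1-labelled list and 10.1% at least 2-fold higher. Per Mb of covered length, 4 of the 6 genes (Mitf, Tfec, Maf and Creb5, as in bp) were at least 2-fold lower, against 21.4% of all genes, and none was at least 2-fold higher, against 18.6%. As BN1-labelled minus control-labelled, the median difference was -2895.5 bp for the 6 genes and -580 bp for all genes with a region. A region of any size was present at 4 of 6 genes in the BN1-labelled list, against 88.9% of all genes with a region, and no member had a region in the BN1-labelled list alone, against 5.47% of all. In a mixed cell sample, fewer cells that carry a mark and less of the mark per cell cannot be told apart.

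**Figure D1:**
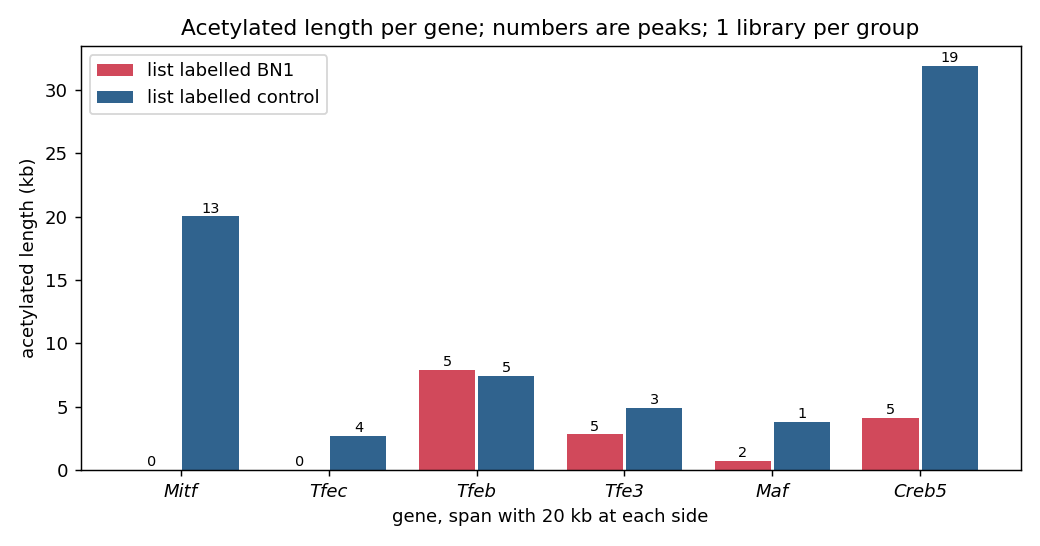
Acetylated length in kb (y axis) of each gene with 20 kb at each side (x axis), with the BN1-labelled list in red and the control-labelled list in blue, and the number of peaks over each bar. There is 1 library per group and hence no error bar. Mitf and Tfec have no bar in the BN1-labelled list, the Tfeb bars are nearly equal, and Creb5 has the tallest bar, at 31875 bp in the control-labelled list.

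Mitf (chromosome 6, 97807002 to 98021360, plus strand) had 0 bp in the BN1-labelled list and 20016 bp in 13 peaks in the control-labelled list. No peak of the BN1-labelled list lay nearer to the gene than 349176 bp on its upstream side or 1005728 bp on its downstream side. Over all genes with a region, 1619 of 14633 (11.1%) had one in the control-labelled list alone. By length, Mitf ranked 3 among those 1619 genes, after Cttnbp2nl (24910 bp) and Dst (21763 bp), which were named after their values were seen. Long windows collect more peaks: of the 572 genes with a window at least as long as that of Mitf, 25.5% had no region in the BN1-labelled list, and 23, Mitf included, had as much acetylated length in the control-labelled list.

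The called peaks of Mitf in the control-labelled list lay in the upstream part of the gene. Its 13 peaks lay in a stretch of 61096 bp, of which they covered 32.8%, beginning at the upstream start and ending 60716 bp into the gene. The remaining 153642 bp, which hold the other 2 RefSeq starts, had no peak in either list. The peak over the upstream start was 1901 bp wide and exceeded 65.6% of the peaks of its list in fold enrichment. All fold enrichments given here are the authors' own values for a peak within its list, and they are not compared across lists. The 3 widest peaks lay inside the gene rather than at the start, with summits 13636, 22753 and 49072 bp into it. They were 5734, 3879 and 3014 bp wide, with fold enrichments of 16.0, 18.5 and 14.6, and made up 63.1% of the acetylated length. The widest exceeded 99.3% of the peaks of its list in width. At the other extreme, 7 peaks were under 600 bp wide, with fold enrichments of 3.54 to 5.03.

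Tfec (chromosome 6, 16830927 to 16898464, minus strand) had 0 bp in the BN1-labelled list and 2682 bp in 4 peaks in the control-labelled list. The nearest peak of the BN1-labelled list was 65806 bp away, on the upstream side. As at Mitf, the peaks of the control-labelled list lay at the start and in the part of the gene next to it. The peak over the start was 349 bp wide with a fold enrichment of 9.77, and the widest, with its summit 6561 bp into the gene, was 1603 bp with a fold enrichment of 12.8. The remaining pair measured 295 and 435 bp. By length Tfec stood far below Mitf, at rank 374 among the 1619 genes with a region in the control-labelled list only.

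Tfeb (chromosome 17, 47737037 to 47792416, plus strand) had 7914 bp in 5 peaks in the BN1-labelled list and 7429 bp in 5 peaks in the control-labelled list. It was the only one of the 6 genes with more bp in the BN1-labelled list, by 485 bp, and per Mb of covered length it had 413.8 in the BN1-labelled list and 239.4 in the control-labelled list. With a 50 kb flank the direction turned, to 8837 bp in the BN1-labelled list and 10679 bp in the control-labelled list. In each list 4 of the 5 peaks were shared, and 65.2% of the length covered by either list was covered by both. The peak over the upstream pair of starts was 2563 bp wide with a fold enrichment of 19.2 in the BN1-labelled list, and 1892 bp wide with a fold enrichment of 5.07 in the control-labelled list. Within the BN1-labelled list this start peak was stronger than the wide intragenic peak, whereas within the control-labelled list the intragenic peak was the stronger one. That intragenic peak, about the middle of the gene, was 3998 bp wide with a fold enrichment of 9.85 in the BN1-labelled list, and 3750 bp wide with a fold enrichment of 12.2 in the control-labelled list. Its summits lay 2344 bp apart, while those of a smaller shared peak, 17038 bp into the gene by the BN1-labelled list, lay 3 bp apart. The third RefSeq start of Tfeb had no peak in either list.

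Tfe3 (chromosome X, 7762530 to 7775202, plus strand) had 2820 bp in 5 peaks in the BN1-labelled list and 4930 bp in 3 peaks in the control-labelled list. Per Mb of covered length the values were 147.5 in the BN1-labelled list and 158.9 in the control-labelled list. Both lists had a peak over the downstream start, 1556 bp wide with a fold enrichment of 14.5 in the BN1-labelled list and 3564 bp wide with a fold enrichment of 14.3 in the control-labelled list. At the upstream start, the peak covered 58 bp of the start region in the BN1-labelled list and its last 3 bp in the control-labelled list, where the peak began downstream of the start itself. The rest of the window is shared with a neighbour: Gripap1 begins 14758 bp beyond the upper end of Tfe3, and the second shared peak and the remaining peak of the control-labelled list lie past that point. Between the neighbouring protein-coding genes Tfe3 had 2437 bp in the BN1-labelled list and 3564 bp in the control-labelled list, a window chosen after the data were seen.

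Maf (chromosome 8, 115703253 to 115706894) had 734 bp in 2 peaks in the BN1-labelled list and 3843 bp in 1 peak in the control-labelled list. Both peaks of the BN1-labelled list, 219 and 515 bp wide with fold enrichments of 2.98 and 7.27, lay wholly within the single peak of the control-labelled list, which had a fold enrichment of 12.1 and crossed the upper end of the gene. Maf was thus acetylated at the same place in both lists, with 19.1% of the length common to both. The surroundings of Maf hold no other protein-coding gene for 350540 bp below and 798120 bp above. Over that whole territory the BN1-labelled list had the same 734 bp, and the control-labelled list had 6925 bp in 5 peaks.

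Creb5 (chromosome 6, 53287226 to 53700364, plus strand) had 4132 bp in 5 peaks in the BN1-labelled list and 31875 bp in 19 peaks in the control-labelled list. Among all 14633 genes with a region, it ranked 2316 by length in the BN1-labelled list and 8 in the control-labelled list. Of the 190 genes with a window at least as long, 57.9% were at least 2-fold lower in the BN1-labelled list, and Creb5 alone reached this length in the control-labelled list. The upstream start had no peak in the BN1-labelled list and a peak of 3528 bp in the control-labelled list, with a fold enrichment of 15.1. The downstream start likewise had no peak in the BN1-labelled list and a peak of 5396 bp in the control-labelled list, with a fold enrichment of 23.2 and its summit 69.3% of the way into the gene.

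Inside Creb5, 3 sites were called in both lists. The strongest peak of either list at this gene was shared: it was 2415 bp wide with a fold enrichment of 10.7 in the BN1-labelled list and 3596 bp wide with a fold enrichment of 28.0 in the control-labelled list, and its summits, 160854 and 160886 bp into the gene, lay 32 bp apart. At a second site, 82644 bp into the gene by the BN1-labelled list, the summits lay 13 bp apart, and the peak was 477 bp with a fold enrichment of 2.49 in the BN1-labelled list and 2056 bp with a fold enrichment of 13.3 in the control-labelled list. At the third, the widths were 288 bp in the BN1-labelled list and 1371 bp in the control-labelled list. Every one of these 3 peaks of the BN1-labelled list lay wholly within its counterpart. The other 2 peaks of the BN1-labelled list, of 508 and 444 bp, flanked the strongest site. Beyond the downstream end of Creb5 the BN1-labelled list had no peak within 20 kb, whereas the control-labelled list had a row of 6 peaks from 2969 to 13398 bp past the end, covering 7433 bp with fold enrichments of 6.58 to 13.9. The next protein-coding gene, Tril, begins 115103 bp away.

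**Figure D2:**
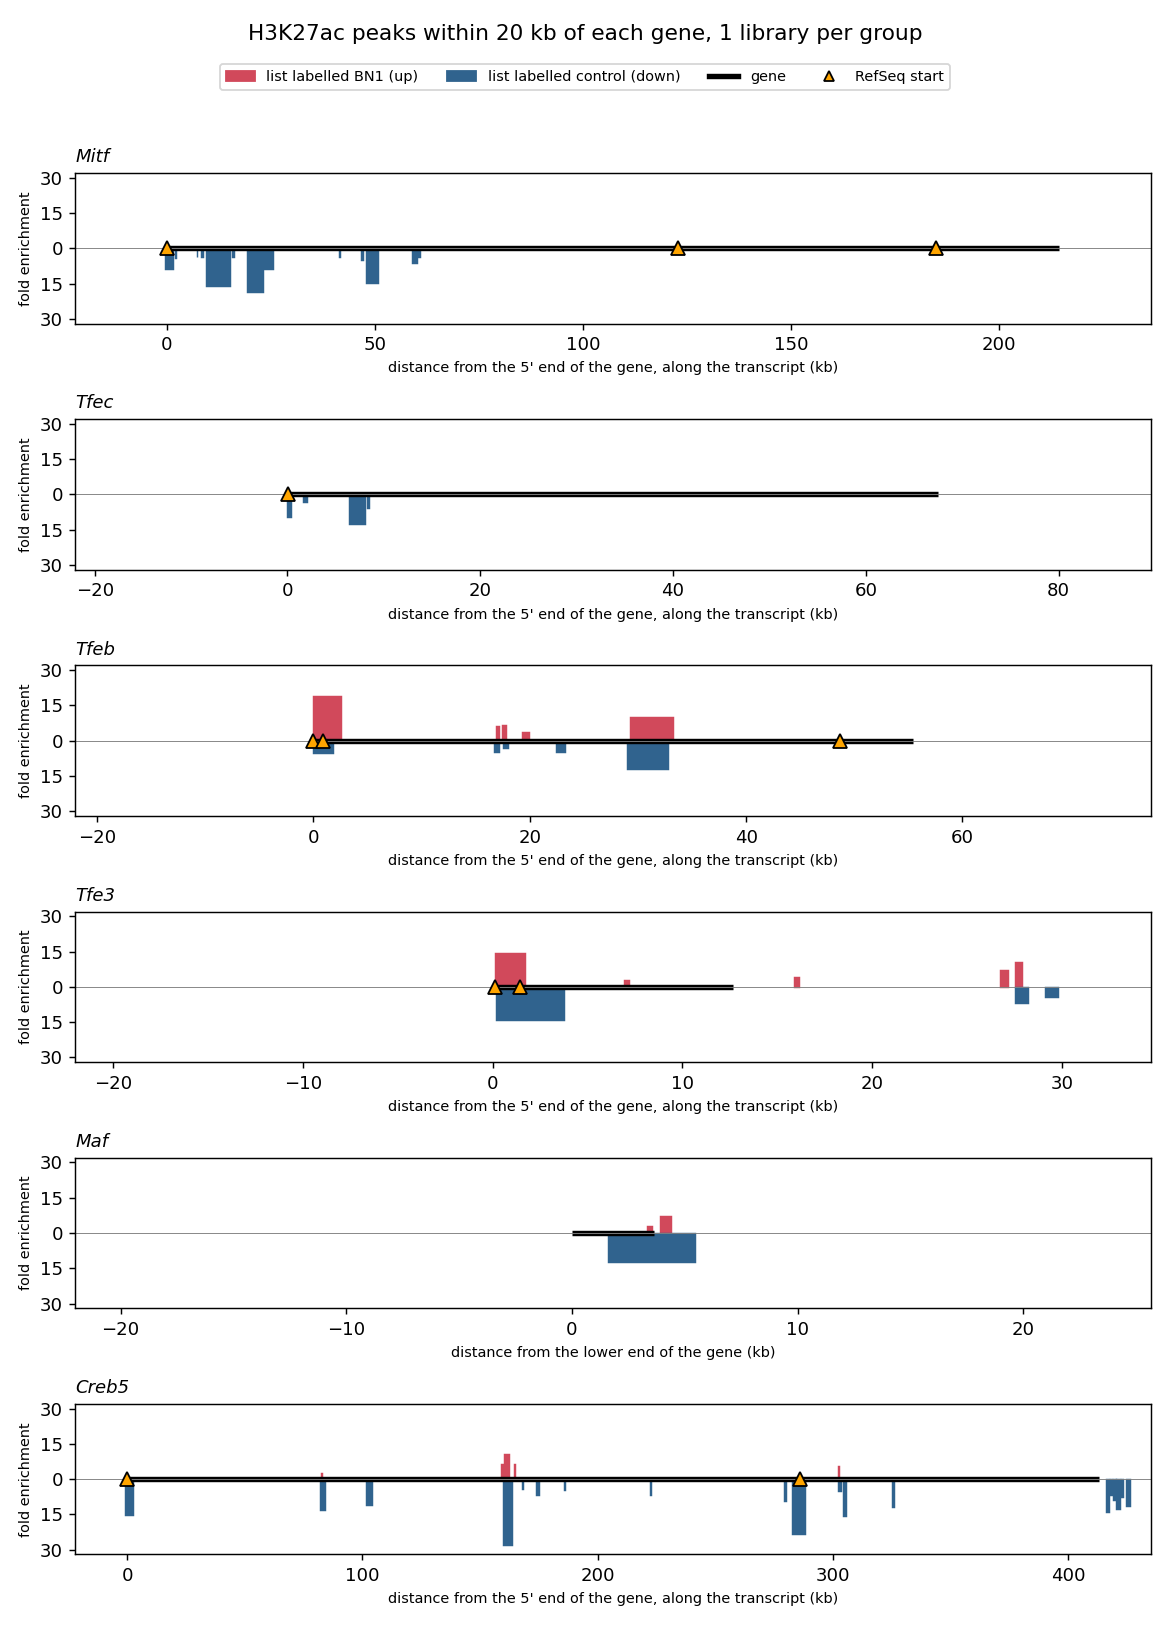
Peaks within 20 kb of each gene, drawn to scale along the transcript in kb from the 5′ end of the gene (for Maf, from its lower end), with the BN1-labelled list upwards and the control-labelled list downwards. Bar height is the authors' fold enrichment, a value within each list, bar width is the peak, the black line is the gene and triangles are RefSeq starts. Mitf has peaks only downwards and only in its upstream part. Tfeb has 5 bars upwards and 5 downwards, of which 4 overlap in position in each direction. Creb5 has 5 bars upwards and 19 downwards.

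Of the 17 peaks of the BN1-labelled list at the 6 genes, 11 overlapped a peak of the control-labelled list (64.7%, 95% exact interval 38.3 to 85.8), against 62.6% of all peaks of that list. Of the 45 peaks of the control-labelled list, 10 overlapped a peak of the BN1-labelled list (22.2%, 11.2 to 37.1), against 41.2% of all. By gene, 2 of 2 at Maf, 4 of 5 at Tfeb, 3 of 5 at Creb5 and 2 of 5 at Tfe3 were shared among the peaks of the BN1-labelled list. The intervals cover counting error only, and peaks of a gene are not independent. The genes were also chosen with differences between these same lists known, so the shares and intervals describe the set and test nothing. The 35 unshared peaks of the control-labelled list comprised 13 at Mitf, 4 at Tfec, 16 at Creb5 and 1 each at Tfeb and Tfe3. Widening the flank to 50 kb added no peak at Mitf, Tfec, Maf or Creb5 in either list.

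**Figure D3:**
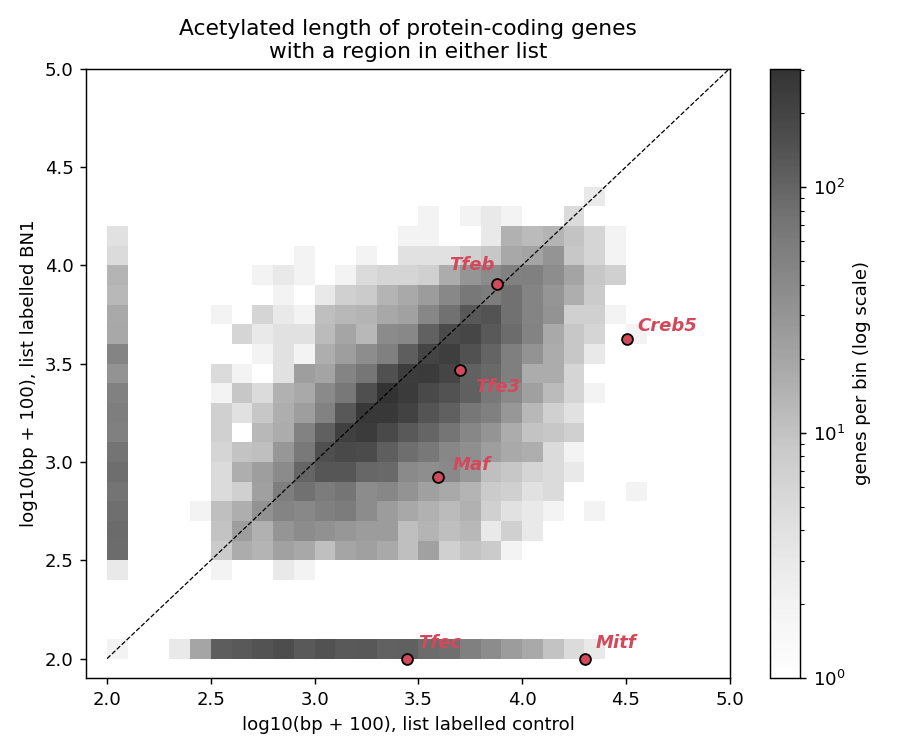
Acetylated length of 14633 genes as log10(bp + 100), with the BN1-labelled list on the y axis and the control-labelled list on the x axis; grey bins count genes on a log scale and the dashed line marks equal length. Tfeb lies near the line, Tfe3 and Maf below it, Mitf and Tfec on the row with no region in the BN1-labelled list, and Creb5 at the right edge of the cloud.

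The genes nearest to Mitf in acetylated length, by the sum of the absolute differences in bp over the 2 lists, were Dock4 (627 bp in the BN1-labelled list and 19700 bp in the control-labelled list), Frmd4b (619 bp BN1-labelled and 20535 bp control-labelled) and Rab11fip5 (302 bp BN1-labelled and 20853 bp control-labelled). Frmd4b is also the next protein-coding gene upstream of Mitf, 189344 bp away. For Creb5 they were Rptor (5512 bp in the BN1-labelled list and 31083 bp in the control-labelled list), Mgat5 (4269 bp BN1-labelled and 34940 bp control-labelled) and Lrp1 (618 bp BN1-labelled and 31922 bp control-labelled). Likeness here rests on 1 library per group and on lengths alone.

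The surroundings of the 6 factors in their pathways were read from 5 gene lists with 95 distinct genes, likewise chosen with earlier results known. Of the 90 with a region, 49 (54.4%) were at least 2-fold lower in the BN1-labelled list and 4 (4.44%) at least 2-fold higher, against 34.0% and 10.1% of all genes with a region. Per Mb of covered length, 34 (37.8%) were lower and 5 (5.56%) higher, against 21.4% and 18.6% of all genes. These shares describe the lists and were not tested. Neighbouring genes can share a peak within 20 kb, as the C1q genes do.

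Among Maf and CREB/ATF relatives, 7 of 16 with a region were at least 2-fold lower in the BN1-labelled list and 1 was higher (median difference -1799 bp, but -0.054 bp per Mb). In bp these were 43.8% and 6.25%, against 34.0% and 10.1% of all genes. Per Mb, 3 were lower (18.8%, below the 21.4% of all genes) and 1 higher. Atf1 had 2623 bp in the BN1-labelled list and 11563 bp in the control-labelled list, and Atf3, a stress-induced factor, had 3515 bp BN1-labelled and 8990 bp control-labelled. Creb3 (4051 bp BN1-labelled and 9239 bp control-labelled) and Creb3l1 (4331 bp BN1-labelled and 8809 bp control-labelled) followed. Mafk, a small Maf protein that pairs with NF-E2, went the other way, with 6430 bp in the BN1-labelled list and 2490 bp in the control-labelled list. Atf2, the relative of Creb5, had 2820 bp BN1-labelled and 2663 bp control-labelled.

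Of 17 regulators of MiT/TFE proteins, all with a region, 8 (47.1%) were at least 2-fold lower in the BN1-labelled list and none higher. Over all genes 34.0% were lower and 10.1% higher. The median difference was -2421 bp, or -33.9 bp per Mb, where all genes had -580 bp and 10.6 bp per Mb. Per Mb, 3 of the 17 were at least 2-fold lower (17.6%, below the 21.4% of all genes) and none higher, so that the higher share in bp was not seen on this scale. Rptor, the mTORC1 subunit, had the widest gap (given above). The 14-3-3 gene Ywhag had 1586 bp in the BN1-labelled list and 12702 bp in the control-labelled list. Fnip2, a partner of folliculin, had 1105 bp BN1-labelled and 11989 bp control-labelled, and the Rag GTPase gene Rragc had 2532 bp BN1-labelled and 6898 bp control-labelled. Its relative Rragd differed little, with 2204 bp in the BN1-labelled list and 2167 bp in the control-labelled list.

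The 28 lysosome and autophagy genes are of the class that Tfeb and Tfe3 switch on. Of these, 15 (53.6%) were at least 2-fold lower in the BN1-labelled list and 2 (7.14%) higher, against 34.0% and 10.1% of all genes. The median difference was -2367.5 bp, or -40.2 bp per Mb, where all genes had -580 bp and 10.6 bp per Mb. Per Mb, 9 were lower (32.1%) and 2 higher (7.14%), against 21.4% and 18.6% of all genes. The protease genes Ctsd (5899 bp in the BN1-labelled list and 21319 bp in the control-labelled list) and Ctsb (933 bp BN1-labelled and 15436 bp control-labelled) led. The cholesterol carrier gene Npc2 had 2598 bp BN1-labelled and 13995 bp control-labelled, and Hexa, a hexosaminidase subunit, had 1518 bp BN1-labelled and 12780 bp control-labelled. Map1lc3b, which encodes an autophagosome protein, was longer in the BN1-labelled list, with 6313 bp BN1-labelled against 1455 bp control-labelled, as was Wipi1, with 2138 bp BN1-labelled against 673 bp control-labelled. Gaa, the acid alpha-glucosidase gene, was less than 2-fold apart (2761 bp BN1-labelled and 2394 bp control-labelled).

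Osteoclast and macrophage targets of MiT factors had the highest share of lower genes among the 5 lists, 10 of 14 (71.4%), with none higher. Over all genes with a region, 34.0% were lower and 10.1% higher. The median difference was -4167 bp, against -580 bp for all genes. Per Mb, 10 were lower (71.4%) and 1 higher (7.14%), against 21.4% and 18.6% of all genes. Ctsk, the collagen-degrading protease of osteoclasts, had 813 bp in the BN1-labelled list and 13154 bp in the control-labelled list, in a window that reaches its neighbour Ctss. Gpnmb, a glycoprotein of macrophages and melanocytes, had 982 bp BN1-labelled and 9388 bp control-labelled, and Tnfrsf11a, the receptor RANK, had 0 bp BN1-labelled and 8240 bp control-labelled. Nfatc1, the osteoclast factor, was less than 2-fold apart (7798 bp BN1-labelled and 14208 bp control-labelled). Acp5 (3384 bp BN1-labelled and 2678 bp control-labelled) and Oscar (1911 bp BN1-labelled and 1651 bp control-labelled) were slightly longer in the BN1-labelled list.

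Of macrophage maturation genes linked to Maf, 9 of 15 with a region were at least 2-fold lower in the BN1-labelled list and 1 higher. These were 60.0% and 6.67%, against 34.0% and 10.1% of all genes. The counts were 9 and 1 per Mb as well, where all genes had 21.4% lower and 18.6% higher. The median difference was -4697 bp, against -580 bp for all genes. The neighbours C1qa, C1qb and C1qc each had 0 bp BN1-labelled and the same 4780 bp control-labelled. This single locus entered the count of lower genes and the median once per gene, which raises that count. Stab1, a scavenger receptor, had 621 bp in the BN1-labelled list and 13910 bp in the control-labelled list. Mertk, a receptor for apoptotic cells, had 2308 bp BN1-labelled and 15054 bp control-labelled, the microglial and macrophage receptor Trem2 had 0 bp BN1-labelled and 6937 bp control-labelled, and Hmox1, haem oxygenase, had 2029 bp BN1-labelled and 7251 bp control-labelled. Cd163, the haemoglobin scavenger receptor, had 620 bp in the BN1-labelled list and 0 bp in the control-labelled list.

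**Figure D4:**
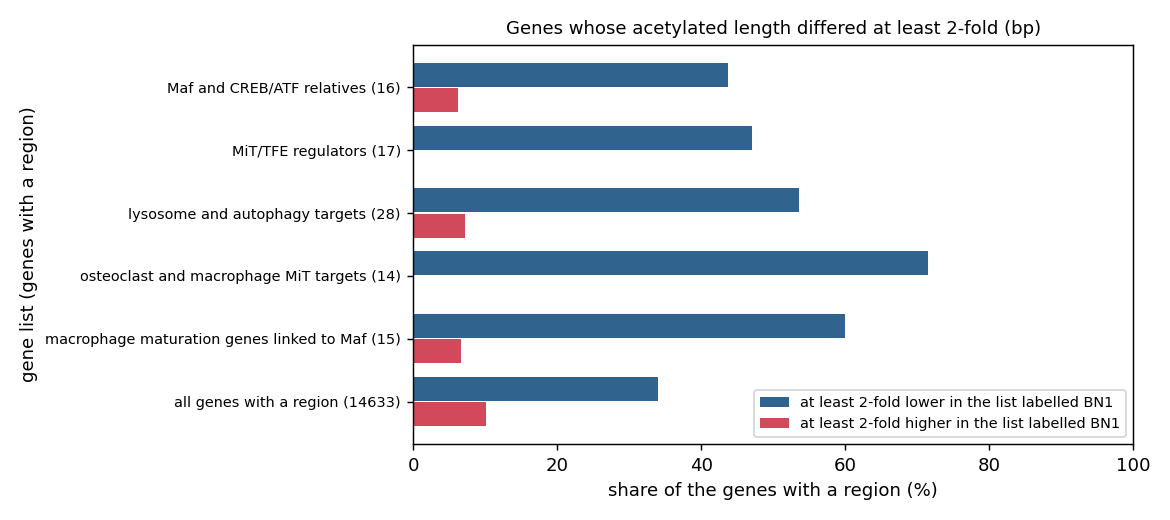
Share of genes with a region (x axis, %) whose acetylated length was at least 2-fold lower (blue) or higher (red) in the BN1-labelled list, for the 5 gene lists and for all genes (y axis, number of genes in parentheses). The share of lower genes in bp is 43.8% to 71.4% in the lists and 34.0% over all genes; per Mb of covered length (not drawn) it is 17.6% to 71.4% in the lists, with the Maf and CREB/ATF relatives and the MiT/TFE regulators below the 21.4% of all genes.

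Markers of several cell types differed between the same lists, where 34.0% of all genes were at least 2-fold lower in the BN1-labelled list and 10.1% at least 2-fold higher. Of 10 monocyte and macrophage markers, 7 were at least 2-fold lower in the BN1-labelled list and none higher, and their summed length was 27073 bp in the BN1-labelled list and 79348 bp in the control-labelled list. Of 8 neutrophil markers, 7 were higher in the BN1-labelled list (summed 48467 bp BN1-labelled and 5847 bp control-labelled), as were 6 of 8 B lymphoid markers (43530 bp BN1-labelled and 8785 bp control-labelled) and 3 of 8 erythroid markers (11796 bp BN1-labelled and 8692 bp control-labelled). No neutrophil marker was lower, while the B lymphoid marker Ms4a1 (0 bp BN1-labelled and 650 bp control-labelled) and the erythroid marker Gata1 (0 bp BN1-labelled and 567 bp control-labelled) were. Of 6 osteoclast markers, 4 were lower and none higher (4197 bp BN1-labelled and 26907 bp control-labelled) and Calcr had no region. Ctsk made up 813 bp of this BN1-labelled sum and 13154 bp of this control-labelled sum. Its window reaches Ctss, a macrophage marker counted above, so the same peaks can enter both marker sets. Within any marker set, too, a peak in the windows of neighbouring genes enters the sum once for each gene. Among 8 mast cell and basophil markers, 2 were lower and 2 higher (12566 bp BN1-labelled and 5024 bp control-labelled), and Cpa3, Fcer1a, Gata2 and Kit (which encodes the sorting marker) had no region in either list. The melanocyte genes Tyr, Dct, Mlana, Sox10 and Tyrp1 had no region in either list, and Pmel had 2898 bp in the BN1-labelled list and 2793 bp in the control-labelled list. Per Mb of covered length, 7 monocyte and macrophage markers were at least 2-fold lower and none higher. On that scale 8 neutrophil, 7 B lymphoid and 4 erythroid markers were higher, with 0, 1 and 1 lower. Of the osteoclast markers 4 were lower and 1 (Acp5) higher, and of the mast cell and basophil markers 2 were lower and 2 higher. Over all genes the shares per Mb were 21.4% lower and 18.6% higher. The part of the cell makeup in the values at the 6 genes was not tested.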

How the data were processed

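The members and gene lists were chosen with earlier results of these data known. Per the submitters' processing notes, Bowtie2 2.5.4, Picard 3.2.0, deepTools 3.5.1, MACS3 3.0.1 and mm10 (GRCm38) were used, with no role given. Not given in the sources used here is how input, pooling and thresholds were handled. Every deposited peak has the authors' fold enrichment (a linear ratio), −log10 p, −log10 q and a score, which was not used. The lowest deposited −log10 q was 1.30 (BN1, 19148 peaks) and 1.32 (control, 28343 peaks).

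Acetylated length is the number of bp under peaks in a gene window, and peaks sharing at least 1 bp were called shared. Genes came from RefSeq GRCm38.p6; start regions matched 5 of the 6 members. With 1 library per group no p-value was computed; shares have exact Clopper-Pearson intervals. Coverage code was tested on simulated peaks. Named genes were all members, the 3 genes nearest in length to Mitf and Creb5, and up to 4 genes per direction of each list by difference in bp; others are marked. Alternatives covered −log10 q minimums (5, 10), list length, flanks, overlap and scale. Values were computed with scipy 1.17.1, pandas 2.3.3 and numpy 2.4.6 under Python 3.11.15.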

Additional observations from a re-analysis of the deposited data

How the results depend on the processing

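The count of members at least 2-fold lower in the BN1-labelled list stayed at 4 under a −log10 q of at least 5 or 10, lists of equal length (19148 peaks), the top 10000 peaks of each list, no flank, a 50 kb flank, scaling per Mb and, chosen after seeing the data, a window to the neighbouring protein-coding genes. The share of control-list peaks that were shared ranged from 13.3% with at least 50% of the peak covered to 26.0% with the 50 kb flank, and that of BN1-list peaks from 47.1% with lists of equal length to 71.4% with the 50 kb flank. The all-peak shares of 41.2% (control list) and 62.6% (BN1 list) hold for the main setting only. Apart from scaling per Mb, shares over all genes or peaks were not recomputed, so contrasts with them were not checked under the alternatives. Of 48 member differences recomputed, 47 kept their sign; the exception was Tfeb with the 50 kb flank, at -1842 bp, where the wider window takes in further peaks. In the window to the neighbouring genes 5 members, Tfec added, had a region in the BN1-labelled list. Depth is unknown and sets which weak peaks either library could yield. No paired analysis was possible because each group had 1 library.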
